A study of Mus musculus with 2 samples.

Results

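Small RNAs derived from repeated sequences other than L1 were examined in fetal mouse testes with and without HSP90α. The set comprised every RNA of 24 to 33 nt that was neither a miRNA nor a structural RNA fragment, that matched transcripts of at least 10 GENCODE M21 genes exactly on either strand, and that could not be placed with up to 2 mismatches on either strand of the 6046-nt Gm47578 transcript, which is a copy of L1. The rule used sequence and not read number, and it gave 13501 of the 1132769 distinct RNA sequences in the series and of the 671180 sequences of this length that were neither miRNA nor structural RNA. They were read 31018 times in WT and 13014 times in Hsp90α KO. Of these sequences, 10830 were found in WT, 5576 in KO and 2905 in both. The study made 1 small RNA library per genotype, WT and Hsp90α KO, each from 20 pooled C57BL/6 testes at embryonic day 16.5. Both pools held whole testes, so germ cells and somatic cells were sequenced together.

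PIWI-interacting RNAs (piRNAs) guide PIWI proteins to transposon RNA and DNA in germ cells. In the fetal testis, MILI carries the shorter and MIWI2 the longer piRNAs. Primary piRNAs tend to begin with uracil (U). When a PIWI protein cuts a complementary transcript opposite the 10th base of its guide, the new 5′ end belongs to a secondary piRNA on the other strand, which overlaps the guide by 10 nt and so tends to carry adenine (A) at its 10th base. L1 is a long retrotransposon, B1 a short one that descends from the cellular 7SL RNA, and intracisternal A particles (IAP) are retrotransposons with long terminal repeats.

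The WT library held 6409305 reads and the KO library 5589326, of which 2523084 and 2561491 were miRNA. The study normalized to miRNA reads. Likewise, levels here are reads per 1000000 miRNA reads, and KO/WT is the ratio of these levels. With 1 library per genotype, no difference had a replicate check. Intervals are 95% and p-values come from exact tests, and both cover the sampling of reads in these 2 libraries and not the variation between testes. PCR reads without molecular identifiers are not independent molecules, so counting error is a lower limit. A sequence with 0 reads could have had up to 3 reads, or 1.19 per 1000000 miRNA reads in WT and 1.17 in KO. The names WT and Hsp90α KO follow the labels: reads matching Hsp90aa1 alone numbered 2 in WT and 10 in KO, too few to check the genotype, and the position of the altered part of the gene is not given in the sources used here.

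The sequences below carry the main results. They are written 5′ to 3′ as DNA (T for U) with the first and the 10th base in capitals, and each RNA is named by its rank in summed level. RNA 2 and RNA 29 are shown first, since their first 10 bases are complementary and they lie on opposite strands, and RNA 4 and RNA 290 form a second such pair.
RNA 2: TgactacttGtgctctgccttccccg
RNA 29: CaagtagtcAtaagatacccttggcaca
RNA 4: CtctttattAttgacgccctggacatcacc
RNA 290: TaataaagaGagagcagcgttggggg
RNA 17 and RNA 30 share the 5′ end of RNA 2 and RNA 7 that of RNA 4, and these 3 had the highest KO/WT among members with at least 100 reads.
RNA 17: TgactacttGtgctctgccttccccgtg
RNA 30: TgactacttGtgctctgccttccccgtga
RNA 7: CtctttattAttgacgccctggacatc
RNA 3 and RNA 8 head their own families, and RNA 5 and RNA 10 are further abundant members of the family of RNA 2.
RNA 3: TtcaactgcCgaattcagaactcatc
RNA 8: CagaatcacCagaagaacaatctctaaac
RNA 5: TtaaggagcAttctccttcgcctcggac
RNA 10: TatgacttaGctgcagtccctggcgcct
RNA 28 and RNA 34 had the lowest and the third lowest KO/WT among members with at least 100 reads.
RNA 28: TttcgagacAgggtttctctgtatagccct
RNA 34: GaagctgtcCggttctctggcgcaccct

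Repeat-derived RNAs outside L1 were lower in KO. They made up 12294 reads per 1000000 miRNA reads in WT and 5081 in KO, a KO/WT of 0.413 (Clopper-Pearson interval 0.405 to 0.422), or 2.42-fold lower. In whole testes, fewer germ cells and less piRNA per germ cell cannot be told apart. The miRNAs of the miR-290 cluster, which germ cells express, had 2024 reads in WT and 2661 in KO (KO/WT 1.30, interval 1.22 to 1.37), and the 5 hairpins of the cluster with at least 100 reads ranged from 1.11 to 1.48. Fragments of structural RNA of the same lengths had a KO/WT of 0.874 (0.864 to 0.883).

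The fall outside L1 was set beside the other 24–33-nt RNAs. Repeat-derived RNAs placed on the L1 copy had a KO/WT of 0.378 (0.372 to 0.384) from 59167 and 22721 reads. The ratio outside L1 was 1.09 times that on L1 (1.06 to 1.12, Fisher's exact test, p = 1.23e-11), but when each distinct sequence was counted once in each library this quotient turned to 0.926, so the order of these 2 sets depended on the counting. RNAs that matched 1 to 9 genes fell less, with a KO/WT of 0.515 (quotient 0.802, Fisher's exact p = 1.10e-90). RNAs that matched no transcript had a KO/WT of 0.663 and a quotient of 0.623 (0.611 to 0.636), which was 0.970 with an interval that included 1 when distinct sequences were counted. That last set also holds nuclear tRNA fragments, which the transcripts used here do not contain. Neither it nor the set of 1 to 9 genes was filtered against the L1 copy. Both can therefore hold L1-derived RNAs, and these contrasts are not of gene number alone.

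Sequences on either side of most boundaries of the set had similar ratios, except at the upper length limit. Sequences of 9 genes that were not placed on the L1 copy, just outside, had a KO/WT of 0.398, and those of exactly 10 genes 0.433. Sequences with 2 mismatches on the L1 copy had 0.350, and members with 3 mismatches 0.354. At the length limits, 23-nt RNAs had 0.475 and 24-nt members 0.436. The 33-nt members had 0.388 (0.308 to 0.485), and 34-nt RNAs were lower, at 0.274 (0.204 to 0.363).

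Most members were rare. In WT 65.9% and in KO 70.6% of the sequences were read once. The 12 most abundant held 6.99% of the reads in WT and 7.48% in KO, and the 100 most abundant held 24.6% and 27.05%. A member matched 10 to 1257 genes with a median of 16, and 13280 genes were matched in all. Matches were on both strands of transcripts for 12523 members, on the sense strand alone for 695 and on the antisense strand alone for 283.

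The length profile peaked at 28 nt in both libraries, at 21.6% of reads in WT and 21.3% in KO. KO/WT was below 1 at every length, from 0.380 at 29 nt to 0.450 at 27 nt. RNAs of 24–27 nt, the MILI size, went from 12443 to 5572 reads (KO/WT 0.441, interval 0.427 to 0.455). Those of 28–32 nt, the MIWI2 size, went from 18298 to 7333 reads (0.395, 0.384 to 0.406). The longer range was lower than the shorter by a quotient of 0.895 (0.858 to 0.933, Fisher's exact p = 1.79e-07). Structural RNA fragments also changed with length, from 1.01 at 24 nt to 0.629 at 33 nt. Scaled to structural fragments of the same length range, the quotient turned to 1.08 (1.03 to 1.13), so the direction of this difference depended on the scaling.

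Both base preferences of piRNAs were present. The first base was U in 65.7% of reads in WT (Wilson interval 65.2 to 66.2) and 64.2% in KO (63.3 to 65.0), against 25.4% and 25.01% over the other positions of the same RNAs. Structural RNA fragments of the same lengths began with U in 26.04% and 25.9% of reads. The 10th base was A in 48.4% of reads in WT (47.9 to 49.0) and 46.5% in KO (45.6 to 47.3), against 24.9% and 25.1% at the other positions and 24.7% and 23.4% at the 10th position of structural fragments. The bases also varied with length. In WT, 26-nt members had the most first U (75.1%) and the fewest 10th A (33.1%), and 30-nt members had the most 10th A (58.1%). KO reads gave 72.8% and 31.7% at 26 nt and 59.1% at 30 nt. The KO library kept both preferences, and each was lower than in WT by at most 2 percentage points when reads were counted, whereas both were slightly higher in KO when each distinct sequence was counted once (first U 58.9% and 60.03%, 10th A 43.3% and 43.5%).

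Divided by these bases, all classes fell. Reads with first U and no 10th A had a KO/WT of 0.436 (0.422 to 0.450) and reads with 10th A and no first U one of 0.445 (0.427 to 0.465), with a quotient of 0.979 (0.929 to 1.03, Fisher's exact p = 0.441). Reads with both bases were lower, at 0.355 (0.340 to 0.370), and reads with neither had 0.406 (0.382 to 0.431).

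Opposite-strand members overlapped by 10 nt more often than by any other length from 1 to 24 nt. A pair was counted once over all transcripts, with the lower of its 2 read numbers as weight. Overlaps of 10 nt took 11.8% of the weight in WT and 13.03% in KO, while the other lengths averaged 3.83% and 3.78% and reached at most 5.67% and 6.75%, both at 13 nt. At least 1 partner at 10 nt was found in the same library for 49.0% of the reads in WT and 43.2% in KO. The share with a partner depends on how many sequences a library holds, and the KO library held fewer. Over both libraries, 4304 members had such a partner. Their 10th base was A in 58.0% of WT reads, against 38.8% for members without a partner. The pairing itself favours this difference and it is not separate evidence. In a 10-nt overlap, the 10th base of each member is complementary to the first base of its partner, and most reads began with U. Within the 5 largest groups the 10-nt overlap took 13.3%, 10.6%, 13.2%, 9.15% and 10.99% of the weight in WT and 15.9%, 11.2%, 12.1%, 12.3% and 13.7% in KO. KO/WT was 0.424 with a partner and 0.402 without (quotient 1.06, 1.01 to 1.10, Fisher's exact p = 0.0102). A partner counted only where both sequences were read in the same library, which held for 3674 sequences in WT and 1561 in KO. The split thus rests on the same read numbers that the test compares, and no conclusion about pairing is drawn from it.

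Single sequences were read against the pool of 24–33-nt RNAs left once miRNAs and structural RNAs were taken out. Of these, 4765 had at least 50 reads in both libraries together, and 19.3% had a KO/WT of at most 0.5 and 0.399% one of at least 2. Of the members, 107 had 50 reads, and 63 of them (58.9%) had a KO/WT of at most 0.5 while 0 had one of 2 or more. Among the L1-placed repeat-derived RNAs the lower calls were 166 of 224 (74.1%). The median KO/WT of the 107 members was 0.460, with quartiles at 0.331 and 0.585, against 0.754 over the 4765 RNAs. The ratio was below 1 for 104 of the 107 members, and for 82.5% of the 4765 RNAs. The whole interval lay below 1 for 85 members, against 40.9% of the 4765, and above 1 for 0, against 1.87%. The other 13394 members had too few reads to be called singly.

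The 12 most abundant members had a KO/WT of 0.308 to 0.697, and all 12 intervals lay below 1. They were 26 to 30 nt long and matched 10 to 71 genes. First U was present in 7 and 10th A in 6, and 9 had a 10-nt partner. RNA 1, whose sequence is not shown here, was read 261 times in WT and 107 in KO (0.404, 0.319 to 0.508). RNA 2 was read 247 and 112 times (0.447), RNA 3 was read 232 and 88 times (0.374) and RNA 4 was read 196 and 107 times (0.538). RNA 5 had the lowest ratio of the 12, at 205 and 64 reads (0.308, 0.229 to 0.409). RNA 8 was read 171 and 60 times (0.346) and RNA 10 was read 142 and 59 times (0.409).

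RNA 2 and RNA 29 carried the primary and secondary pattern on either side of 1 pair. RNA 2 begins with U and has G at its 10th base, while RNA 29 begins with C and has A at its 10th base. RNA 29 was read 78 times in WT and 49 in KO (0.619, 0.424 to 0.896). In the pair of RNA 4 and RNA 290, RNA 290 begins with U and was read 14 and 6 times, so the 10th-A side was the more abundant there.

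RNAs with 1 shared 5′ end and different 3′ ends varied in ratio, but with overlapping intervals. RNA 2, 26 nt long, had a KO/WT of 0.447 (0.354 to 0.561). The 28-nt RNA 17 (89 and 69 reads) had 0.764 (0.549 to 1.06) and the 29-nt RNA 30 (72 and 54 reads) had 0.739 (0.509 to 1.07). In the other example the shorter RNA had the higher ratio. RNA 7, 27 nt long, was read 137 and 97 times (0.697, 0.532 to 0.911), and the 30-nt RNA 4 had 0.538 (0.421 to 0.684). RNA 17, RNA 30 and RNA 7 were picked for their high ratios, so these are descriptions. Taken by their first 20 nt, the members had 6927 different 5′ ends, of which the 12 most abundant held 12.4% of the reads in WT and 13.1% in KO.

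At the other extreme of the members with at least 100 reads, RNA 28 was read 122 times in WT and 5 times in KO, a KO/WT of 0.0404 (0.0129 to 0.0968). RNA 35, whose sequence is not shown here, had 102 and 9 reads (0.0869), and RNA 34 had 99 and 18 (0.179). RNA 28 and RNA 35 belong to 1 family, described below as group 3, and RNA 34 to group 4.

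Members were joined into families without the use of a repeat library. Members that kept the same strands and distance, within 300 nt, in transcripts of at least 5 genes were joined, which gave 334 groups, 154 of them of 1 sequence. The first 5 groups held 79.6% of the reads in WT and 81.0% in KO. Of the 18 groups with at least 100 reads, all had a KO/WT below 1, the interval lay below 1 for 15 and above 1 for 0, and the median was 0.368.

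Group 1 was the largest, and it matched the IAP probe of the study. It held 1886 sequences in 190 genes and 10 of the 12 most abundant members, among them RNA 2, RNA 4 and RNA 5. It was read 7930 times in WT and 3791 in KO (0.471, 0.453 to 0.490), which was 1.20 times the ratio of the other members (Fisher's exact test, Benjamini-Hochberg p over 8 groups = 4.56e-14). RNA 1 and 76 other members share at least 20 nt with the 27-nt Northern probe for an IAP piRNA. These 77 members were read 847 and 380 times (0.442, 0.391 to 0.499), and 74.5% of their WT reads had 10th A.

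The strands of group 1 differed in their bases. On the strand of RNA 1, which gave 62.0% of the group's WT reads, the first base was U in 57.5% (56.1 to 58.8) and the 10th base A in 65.1% (63.8 to 66.4) of reads. On the opposite strand, that of RNA 2, first U was 82.8% (81.5 to 84.1) and 10th A 16.8% (15.5 to 18.2). KO reads showed the same division, with 55.6% and 63.4% on the strand of RNA 1 and 82.2% and 16.4% on the other. The strand of RNA 1 had the slightly lower KO/WT, 0.450 against 0.505 (quotient 0.891, Fisher's exact test, Benjamini-Hochberg p = 0.0115).

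Group 2, headed by RNA 3, had the highest ratio of the 5 largest groups. Its 1804 sequences in 247 genes were read 5873 and 3109 times (0.521, 0.499 to 0.545; 1.34 times the other members, Fisher's exact test, Benjamini-Hochberg p = 1.07e-30). It shared 103 genes with group 1, which is 54.2% of the genes of group 1 and 41.7% of those of group 2. The strand of RNA 3 carried more first U (65.3% against 43.8%) and the opposite strand more 10th A (58.3% against 40.7%). The KO/WT of the strands, 0.530 and 0.504, differed by a quotient of 1.05 with an interval of 0.959 to 1.15.

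Because the members recur, 1 gene can match many of them. The 5 genes matched by most member reads were Noct, B230220B15Rik, Lrrc8d, Kif24 and Abhd2, and in each over 90% of these reads belonged to groups 1 and 2. Noct (ENSMUSG00000023087.15, GRCm38 chr3:51224447-51251644, plus strand), which encodes nocturnin, matched 2125 members with 10085 reads in WT and 5014 in KO (0.490). The reads could have come from any copy of these repeats, so the gene values are not expression of the genes.

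Groups 3 and 6 had the lowest ratios of the 8 largest groups. Group 3 held 2579 sequences in 5809 genes, and was read 4304 times in WT and 1173 in KO, a KO/WT of 0.268 (0.251 to 0.286). This was 0.615 times the ratio of the other members (Fisher's exact test, Benjamini-Hochberg p = 1.39e-46). All 8 of its members with 50 reads were at or below 0.236, with a median of 0.143. At such ratios these 8 reached 50 reads mostly through WT, and they are not separate evidence for the ratio of the group. That ratio varied with abundance. It was 0.180 in sequences with at least 10 reads and 0.401 when each distinct sequence was counted once. Part of the group is related to B1: 49.1% of its reads came from members with a 7SL alignment (Rn7s1 or Rn7s2) within 150 nt in the transcripts, by a relaxed search chosen after seeing the data, although only 2.72% came from members that aligned to 7SL themselves under the stricter rule.

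The fall of group 3 was unequal between strands. The strand of RNA 28 went from 3364 to 771 reads (0.226, 0.208 to 0.244) and the opposite strand from 940 to 402 (0.421, 0.374 to 0.474), a quotient of 0.536 (0.466 to 0.617, Fisher's exact test, Benjamini-Hochberg p = 1.05e-16). All 34 members on the strand of RNA 28 that aligned to 7SL were antisense to 7SL. The set left out exact sense matches to such structural RNAs and kept antisense ones, so this orientation can follow from the rule. The 22 members with the 5′ end of RNA 28 went from 454 to 32 reads (0.0694, 0.0469 to 0.0994). Without them the group had a KO/WT of 0.292 and this strand one of 0.250 (0.230 to 0.271), still below the opposite strand. On the strand of RNA 28, members with a 7SL alignment within 150 nt had 0.199 and the rest 0.262. Leaving out the 5′ end of RNA 28 took the rest only from 1446 to 1444 WT reads and left its 384 KO reads unchanged. Nearly all reads of that end thus lay in the part with 7SL, whose ratio without the end was not computed. First U on the strand of RNA 28 was 73.8% in WT and 64.3% in KO.

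Groups 4 and 7 were mostly L1-related. The Gm47578 copy was the only L1 reference, so divergence and membership of another L1 subfamily cannot be told apart. Members, all of which exceeded 2 mismatches, were aligned with the L1 copy together with their surroundings in the transcripts. They were counted as having L1 context when the alignment took in the member itself, wholly or in large part. Such members gave 79.1% of the reads of group 4 and 85.6% of those of group 7. Group 4, headed by RNA 8, was read 3940 and 1484 times (0.371, 0.349 to 0.394), and group 7 was read 1119 and 372 times (0.327, 0.290 to 0.369). Over all groups, 2029 members with L1 context gave 4604 and 1738 reads (0.372), and the remaining members had 0.420 (0.411 to 0.430). Group 12, all of whose reads had L1 context, had first U in 76.6% and 10th A in 73.2% of WT reads (299 and 103 reads, KO/WT 0.339). The set outside L1 by the rule was thus in part L1-related, at 14.8% of its WT reads.

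The L1-related members also differed by strand. The longest reading frame of the Gm47578 transcript (GRCm38 chr10:99719143-99891158, plus strand) has 183 codons, while that of its complement has 1300, so the annotated transcript runs antisense to the L1 coding frame. Members antisense to the coding frame went from 1915 to 627 reads (0.323, 0.294 to 0.353) and those in its sense from 2689 to 1111 (0.407, 0.379 to 0.437), a quotient of 0.792 (0.707 to 0.888, Fisher's exact p = 6.49e-05). In group 4 as a whole the strand of RNA 8 had 0.407 and the strand of RNA 34 had 0.317 (quotient 1.28, Fisher's exact test, Benjamini-Hochberg p = 0.000327).

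Groups 5, 6 and 8 matched none of the named references. Group 5 was read 2647 and 983 times (0.366, 0.340 to 0.394), with first U at 77.2% on the strand of its top RNA and 10th A at 58.3% on the opposite strand. Group 6 was read 1429 and 417 times (0.287, 0.257 to 0.321). The quotient of group 3 over group 6 was 0.934 (0.823 to 1.06, Fisher's exact p = 0.296), and their order turned when distinct sequences were counted, at 0.401 for group 3 and 0.376 for group 6, and when the 5′ end of RNA 28 was left out. Group 8 was smaller, at 382 and 192 reads (0.495, 0.414 to 0.590). In these 3 groups and in groups 2 and 7, the interval of the quotient between strands included 1. Group 9 was read 311 and 149 times (0.472, 0.386 to 0.576). Its WT reads had 10th A in 76.04% on the strand of its top RNA and 20.9% on the other strand, first U in 35.4% and 42.3%, and 1.56% of its overlap weight was at 10 nt. The brain RNA Bc1, related to ID repeats, aligned with 6 members that had 5 reads in WT and 1 in KO.

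Part of the set matched genes with many copies. Members matching mostly pseudogenes numbered 926 and had a KO/WT of 0.632 (0.575 to 0.696, 1098 and 705 reads), against 0.405 (0.397 to 0.414) for the rest (quotient 1.56, Fisher's exact p = 9.96e-19). They were of 2 kinds. The 197 with L1 context were read 329 and 131 times (0.392, 0.318 to 0.482), and the 729 without it were read 769 and 574 times (0.735, 0.659 to 0.820). Groups 13 and 17 were of the second kind, and each matched a ribosomal protein gene and its copies. Group 13 matched Rpl7a (ENSMUSG00000062647.16, GRCm38 chr2:26910764-26913318, plus strand) and was read 186 and 155 times (0.821, 0.659 to 1.02). Group 17 matched Rps2 and was read 76 and 75 times (0.972, 0.697 to 1.36). Their intervals included 1, and these were 2 of the 3 groups of at least 100 reads that did not fall beyond counting error. Within group 13, however, the strand of its top RNA had 0.942 (0.737 to 1.20), and the opposite strand 0.461 (0.265 to 0.780, 47 and 22 reads). In groups 13 and 17 over 90% of the matched genes were pseudogenes.

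Shorter RNAs that met the same rule were counted beside the members, since the study examined such RNAs for L1. RNAs of 19 nt were read 1044 times in WT and 840 in KO (0.793, 0.723 to 0.869), and the average of the 2 neighbouring lengths, 18 and 20 nt, was exceeded 2.05 times in WT and 1.78 times in KO. Of the 19-nt reads, 39.5% in WT and 32.5% in KO ended directly upstream of a member on the same strand of a transcript, and 15.9% and 12.6% began at the 3′ end of a 29-nt member on the opposite strand. RNAs of 16 nt were read 870 and 736 times (0.833, 0.754 to 0.920), and 32.5% and 19.02% of them ended directly upstream of a member. They did not exceed 17 nt, the only neighbouring length counted, at 0.508 times its reads in WT and 0.332 times in KO. Of the 16-nt reads, 11.6% in WT and 8.56% in KO began at the 3′ end of a 26-nt member on the opposite strand. RNAs of 21, 22 and 23 nt had ratios of 0.548, 0.477 and 0.475, closer to that of the members. RNAs of 17 nt rose from 1713 to 2220 reads (1.28, 1.20 to 1.36), and 7.01% and 4.91% of them ended upstream of a member. This share was also low at 18 nt, at 12.9% in WT and 8.27% in KO. It was 28.9% and 23.4% at 22 nt and 33.8% and 32.2% at 23 nt. A high share upstream of a member was thus not particular to 16 and 19 nt. The KO library held fewer members for a short RNA to adjoin, and the part this played in the lower shares was not tested.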

How the data were processed

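Per the labels, total RNA was extracted with Isogen and the libraries were made with the TruSeq Small RNA kit. The authors clipped the adaptor and deposited, for each library, the raw read count of each distinct sequence, without normalization. The submitters' processing notes name genome build mm9, but the deposited counts carry no coordinates.

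RNAs from 16 nt upwards were placed without mismatch on both strands of the 141767 GENCODE M21 transcripts (GRCm38). Sense matches in hairpins were counted as miRNA and matches to rRNA and other small structural RNAs as structural. No RepBase consensus or genome was used, so repeats without transcribed copies were not analysed here. Surroundings of 150 nt were aligned with BLAST 2.17.0 at an E value of at most 1e-05, in at least 3 of 5 contexts. Ratios were tested with the exact conditional binomial test and sets with Fisher's exact test (scipy 1.17.1). Placement, overlap counting and intervals were tested on simulated data.

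Named sequences were the 12 most abundant, their 10-nt partners, the 3 highest and 3 lowest KO/WT among members with at least 100 reads, and the top of each of the 8 largest groups, and named genes were the 5 matched by most reads and the references. Some are not shown here, and 1 group of multicopy gene fragments is not reported here. Groups 13 and 17 and their genes, and RNA 28's 5′ end, were singled out after their values were seen. The division of mostly-pseudogene members by L1 context and the test of group 3 against group 6 were likewise chosen after seeing the data. The members and lists were chosen with earlier results of these data known.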

Additional observations from a re-analysis of the deposited data

How the results depend on the processing

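KO/WT of the repeat-derived RNAs outside L1 was below 1 under all 16 alternatives, from 0.381 with at least 20 genes to 0.507 with each distinct sequence counted once. The ratios of groups 1 to 8 also stayed below 1 under all 56 alternatives, but group 3 moved from 0.268 to 0.180 in sequences with at least 10 reads and to 0.401 in distinct sequences. Counting each distinct sequence once turned the quotient against L1-placed RNAs to 0.926, brought that against RNAs matching no transcript to 0.970 and brought the length quotient to 0.941, the last 2 with intervals that included 1. It gave first U at 58.9% in WT and 60.0% in KO and 10th A at 43.3% and 43.5%, so that both shares were then lower in WT. Scaling to structural fragments of the same length range turned the length quotient to 1.08. Without the largest group, first U in KO was 63.3% and 10th A was 49.0% in WT and 47.4% in KO. The 10-nt overlap share was 9.73% in WT and 10.2% in KO with distinct pairs, and 21.3% and 23.9% with the product of read numbers as weight. The causes were not tested. The alternatives by group, those of the quotients between sets, and those without group 3 or without the groups of multicopy gene fragments were chosen after seeing the data. No paired analysis was possible because each genotype had 1 library, and for the same reason no library could be left out. Depth limited single-sequence ratios to the 107 members with at least 50 reads.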
